A study of Mus musculus with 147 samples.

Results

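The genes described here are the 3 TGF-β ligands (*Tgfb1*, *Tgfb2* and *Tgfb3*), their 3 receptors (*Tgfbr1*, *Tgfbr2* and *Tgfbr3*) and 4 Smads (*Smad2*, *Smad3*, *Smad4* and *Smad7*). They were chosen by symbol for the ligand and receptor capacity of each well, and all 10 were found among the 35438 genes listed for every well. YFP-positive cells were sorted from the kidneys of adult C57BL/6 mice that all carried the *Ren1c*-YFP transgene, in which regulatory sequence of the renin gene drives yellow fluorescent protein. The WT mice were *Ren1c*+/+ and gave 51 WT renin cells, and the KO mice were *Ren1c*-/- and gave 96 KO renin (null) cells, here called Renin-null cells. YFP marks the activity of the renin promoter, so that it also labels cells that cannot make renin. Mice that carried the *Ren1c* KO allele received saline after birth, cells of several mice were pooled, and both sexes were used in the study. Each cell was held in its own well of a Fluidigm C1 chip, and its polyadenylated RNA was amplified as full-length cDNA with SMART-Seq v4, a chemistry without molecular identifiers. The Renin-null wells came in 2 sequencing libraries of 48 wells, YFP1 and YFP2, and the WT wells were sequenced separately. The labels do not tie a well to a mouse or to a capture. A genotype was therefore 1 sample and was not tested against the other, and its effect cannot be told apart from that of capture or library.

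TGF-β ligands are secreted in a latent form that is stored in the matrix and must be released before it can act. The free ligand binds the type II receptor TGFBR2, which recruits and phosphorylates the type I receptor TGFBR1, so that a cell needs both to signal. TGFBR1 then phosphorylates SMAD2 and SMAD3, which join SMAD4 and move to the nucleus to control transcription. TGFBR3, also called betaglycan, has no kinase and presents ligand to the other receptors. SMAD7 is induced by the pathway and blocks it. In the kidney the pathway is known for driving matrix synthesis by fibroblasts and mural cells.

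The labels were checked first. *Ren1*, the renin gene, stood at 96023 CPM (counts per 1000000 counts) in the summed WT wells and at 0.135 CPM in the summed Renin-null wells. *Akr1b7*, a marker of renin cells that does not depend on renin, had a count in 51 of 51 WT wells and in 94 of 96 Renin-null wells. The reporter EYFP had a count in 37 WT wells and in 88 Renin-null wells. Smooth muscle *Acta2* was at nearly the same level in both genotypes, with 4349 CPM in WT wells against 4291 CPM in Renin-null wells. *Ren1* thus followed the labels. *Akr1b7*, EYFP and *Acta2* were met in both genotypes and do not tell the labels apart, and EYFP lacked a count in some wells of each.

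The wells differed in depth and in quality. Counts per well ranged from 26401 to 17124854 in WT, with a median of 1525972, and from 3628 to 14505243 in Renin-null wells, with a median of 4107950. The median share of mitochondrial counts was 60.4% in WT wells and 12.4% in Renin-null wells. Of the wells, 15 in WT and 57 in Renin-null passed limits of 100000 counts and 1000 genes or more with no more than 25% of mitochondrial counts. For shares of wells, each well was thinned at random to 62000 counts, which left out 2 WT and 13 Renin-null wells and made 1 count worth 16.1 CPM. Near-identical values were found in 4 pairs of Renin-null wells (Pearson's r from 0.974 to 0.987 over log2(CPM + 1) of all genes, and 0.896 in the pair that came next), of which 3 joined a YFP1 with a YFP2 well. Counting each pair once left 6 of the 10 genes at least 2-fold higher and a median log2 ratio of 1.46, against 1.40 in all wells. A low count in a well need not come from that well. *Ren1* had a count in 16 of the 96 wells in which the gene is deleted, with 54 counts in all. In the WT library, counts of the 10 genes were met in 63.03% of the wells that shared an index with the highest well of the gene and in 15.7% of those that shared none. Among YFP1 wells 40.0% compared with 37.3%, and among YFP2 wells 50.4% compared with 46.3%.

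Summed over wells, the 10 genes made up 338 CPM of the WT counts and 891 CPM in Renin-null wells. The ligands summed to 108 and 220 CPM, the receptors to 137 and 390 CPM, and the Smads to 92.3 and 282 CPM. Of the 10 genes, 6 were at least 2-fold higher in Renin-null wells and 0 were at least 2-fold lower. Among the 18720 genes with a ratio, 52.4% were at least 2-fold higher and 18.5% at least 2-fold lower. The median log2 ratio of Renin-null over WT was 1.40 for the 10 genes (from 1.35 to 1.45 by counting error alone) and 1.17 for all genes. The count and the median of the 10 genes were thus near those of the whole transcriptome. With TMM factors in place of total counts, 4 of the 10 genes were at least 2-fold higher (43.1% of all genes) and 1, *Tgfbr2*, at least 2-fold lower (27.2%). All intervals given are at a level of 95%. Those of levels and ratios describe counting error alone, because PCR copies of a molecule were counted as separate reads, and those of shares treat wells as independent draws.

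**Figure D1:**
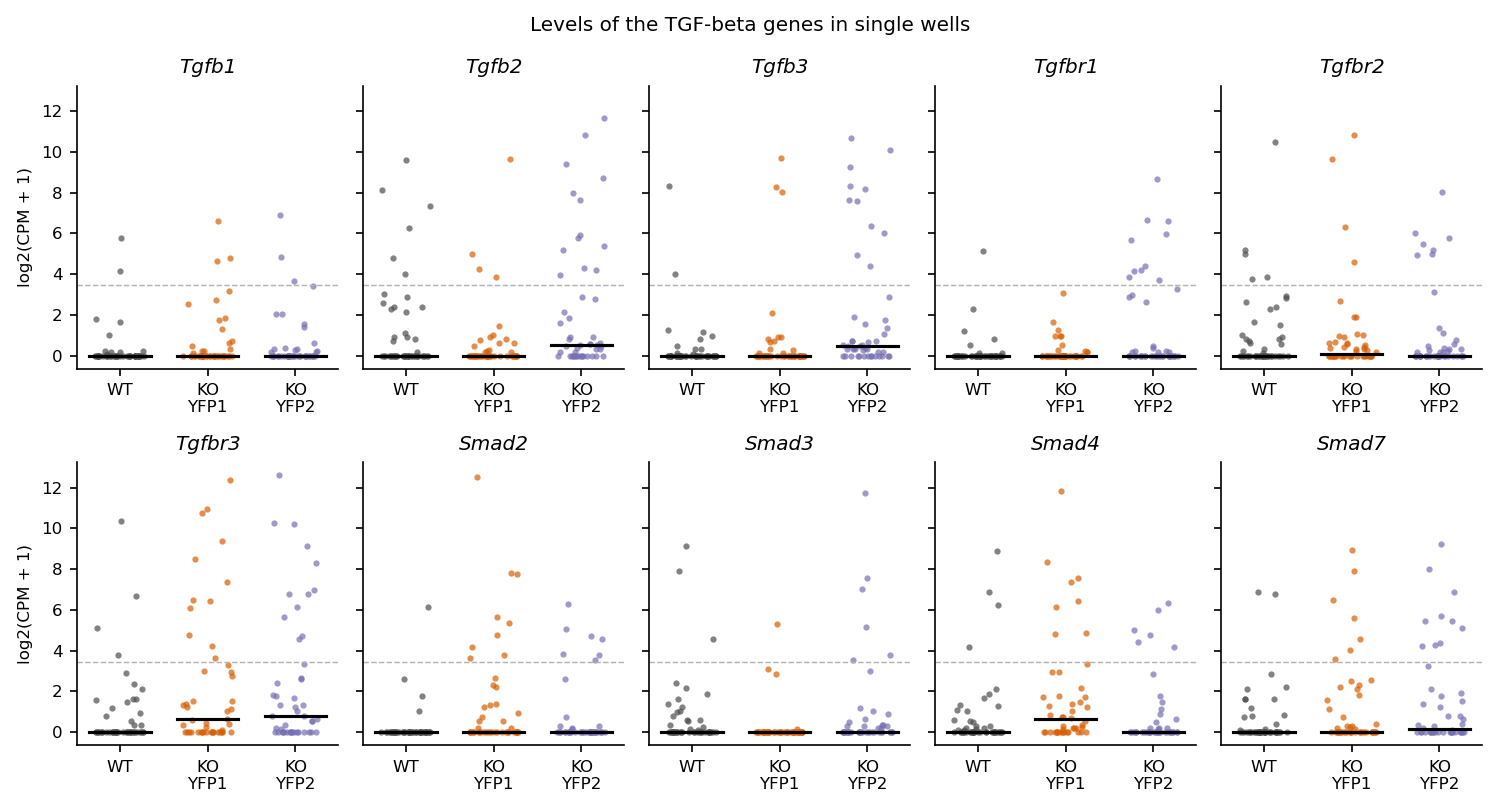
Level of each of the 10 genes in each well, as log2(CPM + 1), for the 51 WT wells and the 48 wells of each Renin-null library (points), with the median over wells (black bar) and the level of 10 CPM (dashed line). Most wells lie at or near 0 for every gene, and the high values come from few wells in each group.

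The levels were carried by few wells, as the plot of single wells shows. The median over WT wells was 0 CPM for each of the 10 genes, and over Renin-null wells it was above 0 for *Tgfbr3* (0.645 CPM), *Tgfb2* (0.126 CPM) and *Smad4* (0.121 CPM). Every gene had wells at 0 in both genotypes, so that the genotypes overlapped for all 10. A single well held over 50% of the WT counts for 9 of the 10 genes and over 50% of the Renin-null counts for 5 of them. The same was not counted over all genes, so these numbers are not set against the whole transcriptome.

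**Figure D2:**
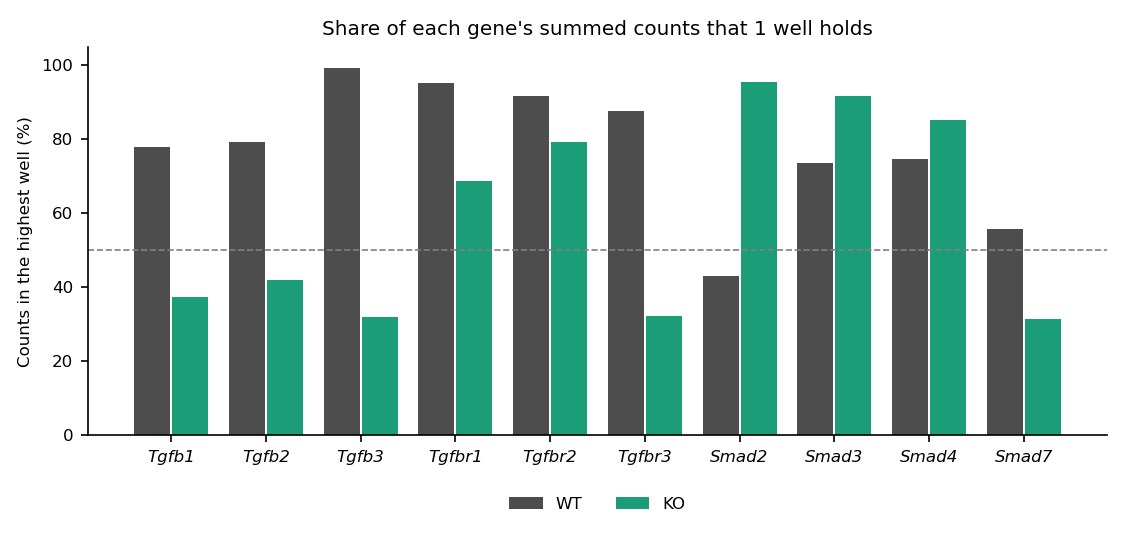
Share of the summed counts of each gene that its highest well holds, in percent, for WT (grey) and Renin-null (green) wells, with 50% marked by a dashed line. In WT only *Smad2* lies below the line, and in Renin-null wells *Tgfbr1*, *Tgfbr2*, *Smad2*, *Smad3* and *Smad4* lie above it.

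Of the ligands, only *Tgfb3* was at least 2-fold higher in the summed Renin-null wells. *Tgfb1* (chr7:25687002-25705077, GRCm38) encodes the ligand best known in renal fibrosis. It had a count in 10 WT wells, at most 54.2 CPM, and in 32 Renin-null wells, at most 120 CPM. The summed level was 4.23 CPM in WT (3.95 to 4.53) and 5.43 CPM in Renin-null wells (5.20 to 5.66), a log2 ratio of 0.36 that turned to -0.35 with TMM factors. WT well 3 held 78.04% of the WT counts, and without the highest wells the log2 ratio was 1.87. Both libraries gave a like value, with log2 ratios of 0.29 in YFP1 and 0.41 in YFP2. *Tgfb1* was thus rare in both genotypes.

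*Tgfb2* (chr1:186622792-186705989) encodes the ligand that depends most on betaglycan. It was seen in 19 WT wells, up to 768 CPM, and in 49 Renin-null wells, up to 3278 CPM. Its sum was 83.9 CPM in WT (82.7 to 85.2) and 118 CPM in Renin-null wells (117 to 119), a log2 ratio of 0.49 that turned to -0.21 with TMM factors. The libraries stood on opposite sides of WT, at 37.9 CPM in YFP1 and 185 CPM in YFP2. WT well 43 held 79.2% of the WT counts, and without the highest wells the log2 ratio was 1.97.

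*Tgfb3* (chr12:86056745-86079041), the third isoform, is known from development and wound repair. Counts were present in 11 WT wells, at most 322 CPM, and in 47 Renin-null wells, at most 1641 CPM. At 10 CPM or more, 2 WT wells and 14 Renin-null wells remained. The sum was 20.0 CPM in WT (19.4 to 20.6) and 96.1 CPM in Renin-null wells (95.2 to 97.1), a log2 ratio of 2.26 (1.15 for YFP1 alone, 2.80 for YFP2 alone). WT well 10 alone held 99.4% of the WT counts, and without the highest wells the log2 ratio was 9.08. This well had 10791 genes and passed the limits for markers of proximal tubule and collecting duct. The highest Renin-null well, well 73, held 31.9% and passed no such limit. Its endothelial markers nevertheless summed to 1295 CPM and its fibroblast markers to 2311 CPM. Exons of *Tgfb2* overlap the antisense gene *Gm29491*, and those of *Tgfb3* overlap *Gm37804* and *Gm48008*. No strand information was stated for the counting, so reads from these stretches cannot be told apart.

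Among the receptors, *Tgfbr3* was the gene with a higher level in the sum, in both libraries and without the highest wells. *Tgfbr3* (chr5:107106570-107289629) had a count in 17 WT wells, up to 1333 CPM, and in 61 Renin-null wells, up to 6199 CPM. At 10 CPM or more there were 4 WT and 24 Renin-null wells, 12 of them in each library. The summed level was 67.03 CPM in WT (65.9 to 68.2) and 337 CPM in Renin-null wells (335 to 338), a log2 ratio of 2.33. The libraries gave 343 CPM in YFP1 and 332 CPM in YFP2. Leaving out the highest well of each genotype raised the log2 ratio to 4.80, since WT well 44 held 87.8% of the WT counts. After thinning, 5 of 49 WT wells (10.2%, exact binomial interval 3.40 to 22.2%) and 23 of 83 Renin-null wells (27.7%, 18.4 to 38.6%) had a count. Among wells that passed the limits, those shares were 4 of 15 (26.7%, 7.79 to 55.1%) and 15 of 57 (26.3%, 15.5 to 39.7%). They moved to 1 of 15 (6.67%) and 11 of 57 (19.3%) in the same wells when mitochondrial counts were left out before thinning. Without thinning they were 20.0% and 21.1% at 10 CPM, 26.7% and 35.1% at 10 counts, and 40.0% and 70.2% at 1 count. An exon of *Tgfbr3* overlaps *Gm43422* on its own strand.

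*Tgfbr1* (chr4:47353222-47414931), the type I receptor, was scarcer per length than *Tgfbr2* in WT (0.383 against 8.39 CPM per kb) and YFP1 (0.0871 against 9.50), but not in YFP2 (3.08 against 1.84). It had a count in 7 WT wells, at most 34.0 CPM, and in 32 Renin-null wells, at most 401 CPM. Its sum was 2.20 CPM in WT (2.00 to 2.42) and 9.88 CPM in Renin-null wells (9.57 to 10.2), a log2 ratio of 2.16. The libraries disagreed in direction, with 0.502 CPM in YFP1 (log2 ratio -2.13) and 17.7 CPM in YFP2 (log2 ratio 3.01). Of the 10 Renin-null wells at 10 CPM or more, all were in YFP2. WT well 10 held 95.2% of the WT counts, and without the highest wells the log2 ratio was 4.86.

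*Tgfbr2* (chr9:116084293-116175360), the type II receptor, was the receptor with a lower sum in Renin-null wells. Counts were found in 22 WT wells, up to 1412 CPM, and in 45 Renin-null wells, up to 1838 CPM. The sum was 67.9 CPM in WT (66.7 to 69.04) and 43.1 CPM in Renin-null wells (42.4 to 43.7), a log2 ratio of -0.66. Here too the libraries differed, with 76.9 CPM in YFP1 and 14.9 CPM in YFP2. WT well 44 held 91.8% of the WT counts and Renin-null well 21 held 79.2% of the Renin-null counts. Without these wells the log2 ratio was 0.68, so that the direction rested on them.

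The receptor-activated Smads were each set by 1 or a few wells. *Smad2* (chromosome 18) had the highest ratio of the 10 genes, yet it rested on Renin-null well 21 of YFP1, which held 95.5% of the Renin-null counts at 5953 CPM. It had a count in 4 WT wells, up to 70.2 CPM, and in 34 Renin-null wells. The sum was 0.728 CPM in WT (0.614 to 0.857) and 116 CPM in Renin-null wells (115 to 117), a log2 ratio of 7.31. In YFP2, which does not hold that well, the level was 5.08 CPM and the log2 ratio 2.80. Without the highest well of each genotype, the log2 ratio was 3.65. At 10 CPM or more, *Smad2* was found in 1 WT well and 16 Renin-null wells, 9 in YFP1 and 7 in YFP2. The direction of *Smad2* was thus shared by both libraries, whereas its size came from 1 well.

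*Smad3* (chr9:63646767-63757994) stood level in the sums, with 46.1 CPM in WT (45.1 to 47.0) and 45.1 CPM in Renin-null wells (44.5 to 45.8). It had a count in 19 WT wells, up to 557 CPM, and in 23 Renin-null wells, up to 3394 CPM. Renin-null well 79 of YFP2 held 91.7% of the Renin-null counts. The log2 ratio was -0.030 in all wells, -4.53 in YFP1, 0.82 in YFP2 and -1.70 without the highest well of each genotype. With the mean over wells of CPM it was 1.28, and in thinned wells 1.51. *Smad3* was seen in 4 YFP1 wells against 19 YFP2 wells.

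*Smad4* (chromosome 18), the partner shared with the BMP branch, had a count in 21 WT wells, up to 472 CPM, and in 49 Renin-null wells, up to 3619 CPM. The sum was 33.7 CPM in WT (32.9 to 34.5) and 90.7 CPM in Renin-null wells (89.7 to 91.6), a log2 ratio of 1.43. Renin-null well 18 of YFP1 held 85.3% of the Renin-null counts. YFP1 stood at 189 CPM and YFP2 at 8.97 CPM, above and below WT. The log2 ratio was 0.65 without the highest wells and 0.72 with TMM factors, both under 2-fold.

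The inhibitory *Smad7* (chromosome 18) was less bound to 1 Renin-null well than the other Smads, with 31.5% of the counts in the highest. It had a count in 15 WT wells, up to 116 CPM, and in 47 Renin-null wells, up to 600 CPM. At 10 CPM or more there were 2 WT and 17 Renin-null wells, 7 in YFP1 and 10 in YFP2. Its sum was 11.8 CPM in WT (11.3 to 12.3) and 30.6 CPM in Renin-null wells (30.1 to 31.2), a log2 ratio of 1.38. The libraries were alike, at 32.5 CPM in YFP1 and 29.1 CPM in YFP2. Leaving out the highest wells gave a log2 ratio of 2.01, and TMM factors gave 0.68, under 2-fold.

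**Figure D3:**
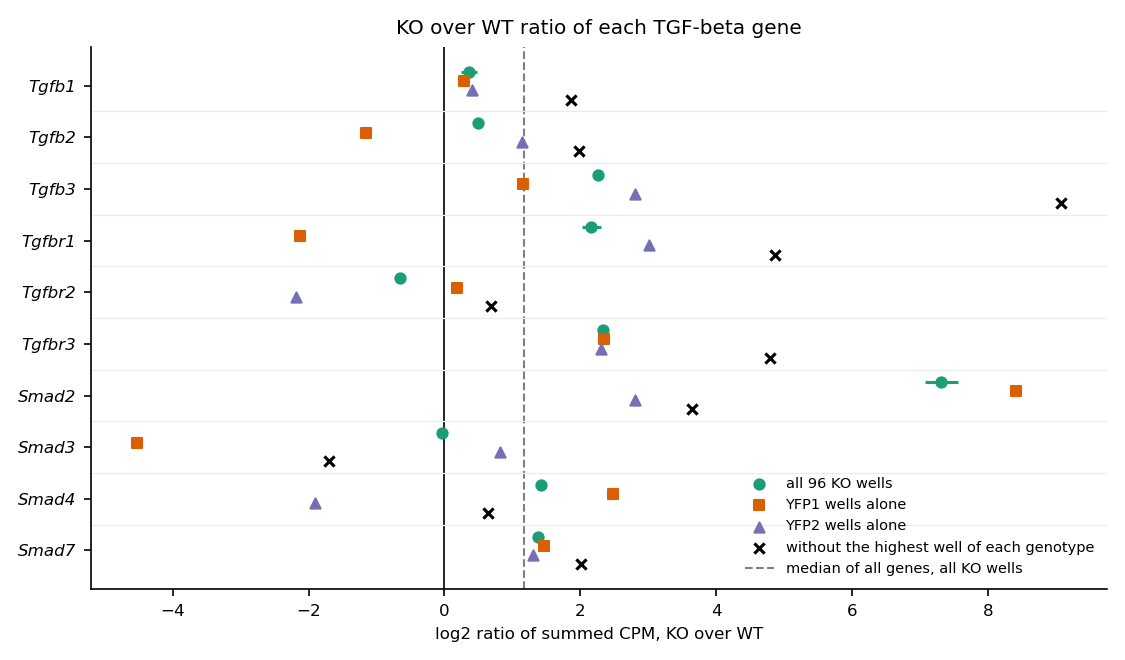
Log2 ratio of summed CPM, Renin-null (KO) over WT, for each gene in all Renin-null wells (green circles, with 95% counting intervals), in each library alone (orange squares and purple triangles) and without the highest well of each genotype (black crosses). The dashed line is the median of all genes (1.17), and *Tgfb2*, *Tgfbr1*, *Tgfbr2*, *Smad3* and *Smad4* have their libraries on opposite sides of 0.

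Set side by side in the plot of ratios, the libraries gave the same direction for 5 of the 10 genes, *Tgfb1*, *Tgfb3*, *Tgfbr3*, *Smad2* and *Smad7*. The share of all genes with the same direction in both libraries was not counted. In YFP1, 5 genes were at least 2-fold higher than WT (45.7% of all genes) and 3 at least 2-fold lower (27.4%). In YFP2, 6 were higher (49.8%) and 2 lower (22.7%). Without the highest well of each genotype, 7 were at least 2-fold higher, against 63.2% of all genes, and 1, *Smad3*, at least 2-fold lower, against 10.8%. The 4 genes at least 2-fold higher in the sum, in each library and without the highest wells were *Tgfb3*, *Tgfbr3*, *Smad2* and *Smad7*, and 28.1% of all genes met the same rule. With TMM factors *Smad7* was no longer among the genes 2-fold higher in the sum. Both libraries were compared with the same WT wells.

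Per kilobase of the longest coding transcript, the order of the summed levels differed between the genotypes. In WT it ran from *Tgfb2* (16.4 CPM per kb) through *Tgfbr3* (11.0), *Smad4* (9.96), *Smad3* (9.05), *Tgfbr2* (8.39), *Tgfb3* (5.91), *Smad7* (2.75), *Tgfb1* (1.95) and *Tgfbr1* (0.383) to *Smad2* (0.0900). In Renin-null wells it began with *Tgfbr3* (55.3 CPM per kb), *Tgfb3* (28.4), *Smad4* (26.8), *Tgfb2* (23.1) and *Smad2* (14.3). *Smad3* (8.87), *Smad7* (7.15), *Tgfbr2* (5.32), *Tgfb1* (2.49) and *Tgfbr1* (1.72) followed. *Tgfbr3* was the first gene in YFP1 (56.3 CPM per kb) and in YFP2 (54.5). Other places moved with the library, since *Smad4* was at 55.7 CPM per kb in YFP1 and 2.65 in YFP2, and *Tgfb2* at 7.40 and 36.2. Neighbours from *Tgfb3* to *Smad2* in the Renin-null order therefore did not differ beyond the spread between libraries.

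The capacity of a well was read from the thinned counts. None of the 10 genes was found in 27 of 49 WT wells (55.1%, 40.2 to 69.3%) and in 18 of 83 Renin-null wells (21.7%, 13.4 to 32.1%; 20.0% of YFP1 wells, 23.3% of YFP2 wells). The share of wells with a count was larger in Renin-null than in WT wells for 9 of the 10 genes, and for 67.3% of all genes with a ratio. In the 15 WT and 57 Renin-null wells that passed the limits, the wells with none of the genes made up 20.0% (4.33 to 48.1%) and 21.1% (11.4 to 33.9%). In these wells 6 genes had the larger share in Renin-null and 4 in WT wells, and no count over all genes was made. The gap seen in all wells was thus not present at this setting, but its size moved with the rule of detection. In the same wells the shares with none of the genes were 33.3% in WT and 22.8% in Renin-null at 10 CPM, and 40.0% and 28.1% when mitochondrial counts were left out before thinning. They were 20.0% and 10.5% at 10 counts, 46.7% and 49.1% at 100 CPM, and 0% in both at 1 count. Each of these WT shares rests on 15 wells and has a wide interval. Whether well quality set the gap in all wells was not tested.

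A ligand was found in 10 of 49 WT wells (20.4%, 10.2 to 34.3%) and in 27 of 83 Renin-null wells (32.5%, 22.6 to 43.7%). YFP1, with 8 of 40 wells (20.0%), stood at the WT share, and YFP2, with 19 of 43 wells (44.2%), above it. In thinned wells passing the limits, a ligand was found in 5 of 15 WT wells (33.3%, 11.8 to 61.6%) and in 24 of 57 Renin-null wells (42.1%, 29.1 to 55.9%). Without thinning, 58.8% of all WT wells and 67.7% of all Renin-null wells had at least 1 ligand count. After thinning, most ligand wells held 1 ligand. *Tgfb2* alone was then found in 6 WT and 10 Renin-null wells, *Tgfb3* alone in 3 and 8, and *Tgfb1* alone in 1 and 3. More than 1 ligand was found in 6 Renin-null wells (7.23%, 2.70 to 15.1%) and in 0 of 49 WT wells, which allows a share of up to 6.12% by a limit of 3 wells and of up to 7.25% by the exact binomial interval. Without thinning, more than 1 ligand was found in 9 of 51 WT wells (17.6%) and in 46 of 96 Renin-null wells (47.9%), most of the 65 Renin-null wells with a ligand count. Among wells passing the limits these were 7 of 15 (46.7%, 21.3 to 73.4%) and 39 of 57 (68.4%, 54.8 to 80.1%). At 10 counts or more of each ligand, 3 of 51 WT wells (5.88%) and 9 of 96 Renin-null wells (9.38%) remained.

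The receptor pair that signalling needs was rare. *Tgfbr1* or *Tgfbr2* was found in 5 of 49 WT wells (10.2%, 3.40 to 22.2%) and in 15 of 83 Renin-null wells (18.1%, 10.5 to 28.0%), 4 in YFP1 and 11 in YFP2. This order turned to 16.0% in WT against 13.3% in Renin-null when mitochondrial counts were left out before thinning. In wells passing the limits it was 26.7% against 19.3%. At the thinned depth in all wells, both receptors were found in 1 WT well (2.04%, 0.0517 to 10.9%) and in 3 Renin-null wells (3.61%, 0.752 to 10.2%), all of YFP2. The order of these shares turned with the setting, to 1.96% in WT against 1.04% in Renin-null at 10 CPM, 2.00% against 1.20% when mitochondrial counts were left out before thinning, and 6.67% against 3.51% in wells passing the limits. Each of these 4 wells also held a ligand. The WT well was well 10, with 34.0 CPM of *Tgfbr1* and 35.3 CPM of *Tgfbr2*. Renin-null well 67 had 8.54 and 259.7 CPM, well 73 had 5.10 and 30.5 CPM, and well 96 had 12.3 and 35.8 CPM. Before thinning, 6 Renin-null wells and 1 WT well had at least 10 counts of both. Of these, 4 Renin-null wells and the WT well had over 9000 genes, a number passed by 6 Renin-null wells and 1 WT well in all. Wells 48 and 96, both among the 6, are a near-identical pair, and 3 of the 6 passed the limit for markers of another cell type. At the thinned depth, wells with a ligand, both receptors, *Smad2* or *Smad3*, and *Smad4* were 1 in WT and 1 in Renin-null.

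**Figure D4:**
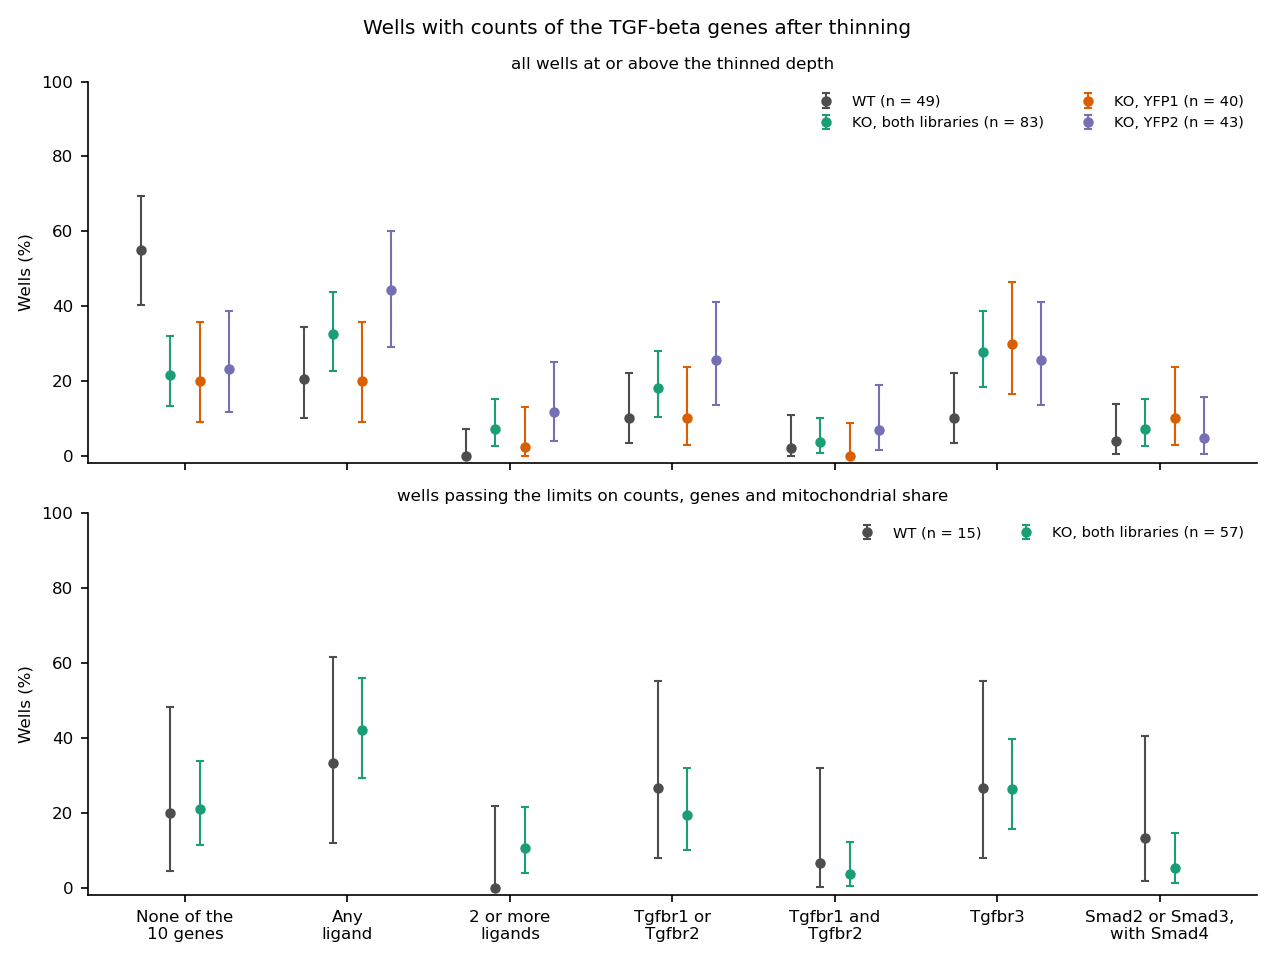
Share of wells, in percent, with at least 1 count of the named genes after thinning to 62000 counts, for all wells at or above that depth (upper panel) and for wells passing the limits on counts, genes and mitochondrial share (lower panel). Bars are exact binomial intervals at 95%; the share with none of the 10 genes is 55.1% in WT and 21.7% in Renin-null wells above, and 20.0% and 21.1% below.

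The other genes in wells with and without a receptor were described in the 83 thinned Renin-null wells. *Smad2* was found in 5 of 11 wells with *Tgfbr2* (45.5%, 16.7 to 76.6%) and in 10 of 72 without it (13.9%, 6.87 to 24.1%). *Smad4* gave the same numbers. *Tgfb2* was found in 4 of 23 wells with *Tgfbr3* (17.4%, 4.95 to 38.8%) and in 11 of 60 without it (18.3%, 9.52 to 30.4%). The intervals overlapped in each of these pairs. Across wells, the number of the 10 genes found in a thinned well went with the number of all genes found there (Spearman's rho 0.46 over 49 WT wells, -0.028 over 40 YFP1 wells and 0.65 over 43 YFP2 wells). The wells of a library share an index set, and the relation was seen in WT and YFP2.

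Markers of other cell types moved with genotype and library. A well was counted for a cell type when at least 3 markers of its list, or 2 in lists of up to 4 genes, reached 10 CPM. Markers of another cell type passed this limit in 3 WT wells and in 22 Renin-null wells, 7 in YFP1 and 15 in YFP2. The 4 podocyte markers summed to 85.8 CPM in WT, 142 CPM in YFP1 and 815 CPM in YFP2, with *Synpo* the most abundant in WT and *Podxl* at 0 there. The 8 endothelial markers summed to 38.3, 36.1 and 403 CPM, with *Emcn* the most abundant in WT and YFP2, and *Cdh5*, *Plvap* and *Egfl7* at 0 in WT. The 6 fibroblast markers summed to 171, 343 and 860 CPM, led by *Col1a2*, with *Dpt* at 0 in all groups. Proximal tubule markers (6) summed to 27.9, 279 and 359 CPM, and *Slc5a2* was at 0 in WT. The 4 markers of loop and distal tubule summed to 0.515, 189 and 43.0 CPM, and the 4 of collecting duct to 3.55, 3.06 and 61.6 CPM. The 8 macrophage and leukocyte markers stayed low, at 0.985, 5.21 and 4.57 CPM, with *C1qb* and *Adgre1* at 0 in all groups. The 7 smooth muscle and mural markers had like sums, at 22371, 24950 and 26750 CPM, led by *Rgs5*. Within this list *Pdgfrb* (503.5 CPM in WT, 83.4 CPM in Renin-null wells) and *Notch3* (310 and 146 CPM) were at least 2-fold lower.

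Wells over the limit of another list held 24.3% of all Renin-null counts and 13.9% of all WT counts. They held 32.4% of the Renin-null counts of *Tgfb3* and 20.7% of those of *Tgfbr3*, most of it in wells over the podocyte limit (31.5% and 18.2%). For the other 8 genes they held from 0.167% (*Smad3*) to 10.4% (*Tgfb1*). Without these wells, *Tgfbr3* stood at 75.5 CPM in WT against 353 CPM in Renin-null wells, a log2 ratio of 2.22. *Smad7* then stood at 7.74 and 37.3 CPM. *Tgfb3* stood at 0.0763 and 85.9 CPM, because the WT well with nearly all of its counts was among those left out. *Smad7* likewise lost 43.3% of its WT counts with these wells, so that the values of *Tgfb3* and *Smad7* do not bear on the part of other cell types, which was not tested.

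The rest of the pathway was read from 54 further genes, of which 52 had a ratio. At least 2-fold higher in Renin-null wells were 29, and 7 were at least 2-fold lower, against 52.4% and 18.5% of all genes. Their median log2 ratio was 1.43. In the sum, in every library and without the highest wells, 22 of the 52 were at least 2-fold higher, against 28.1% of all genes with a ratio.

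Of the 11 genes for latency and activation, 6 were at least 2-fold higher and 2, *Ltbp2* and *Thbs1*, at least 2-fold lower. *Ltbp2* stood at 1.09 CPM in WT against 0.145 CPM in Renin-null wells. *Ltbp4*, which tethers latent TGF-β to the matrix, was at 0.0202 CPM in WT, with 4 counts in 1 well, and at 104 CPM in Renin-null wells, with 83.5 CPM in YFP1 and 122 CPM in YFP2. *Itgb6*, the β-chain of an integrin that frees the ligand, was at 0.0354 and 30.2 CPM, but 95.4% of its Renin-null counts came from 1 well. *Ltbp1* had the higher summed level in WT, with 277 against 181 CPM. Its log2 ratio was -0.62 by total counts and -0.40 without the highest wells, both under 2-fold. After thinning it was found in the smaller share of WT wells, with 36.7% against 62.7% of Renin-null wells. *Thbs1*, the activator thrombospondin, was at 82.6 CPM in WT against 34.8 CPM in Renin-null wells, and 1 WT well held 94.8% of the WT counts. Without the highest wells its log2 ratio turned from -1.25 to 2.72. Chosen after their values were seen, *Itgav* (12.9 and 260 CPM), the αv chain of these integrins, and *Emilin1* (6.39 and 307 CPM), which restrains processing of the TGF-β precursor, were higher in both libraries.

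Other receptors of the superfamily were split, with 4 higher, 4 lower and a median log2 ratio of -0.71. The sign of this median turned with the setting, to 0.68 with the mean over wells of CPM, 0.12 with mean log2(CPM + 1) and 1.796 without the highest wells. The activin receptors *Acvr1b* (0.627 and 13.4 CPM) and *Acvr2a* (0.788 and 12.9 CPM) were higher in Renin-null wells and in each library. *Acvr2b* (20.2 and 0.416 CPM) and *Acvr1* (14.8 and 2.06 CPM) were lower, and 91.6% and 99.6% of their WT counts lay in 1 well. Without the highest wells *Acvr2b* stayed lower (log2 ratio -5.41), whereas *Acvr1* turned from -2.85 to 4.07. The BMP Smads *Smad1* (4.55 and 96.6 CPM) and *Smad5* (4.86 and 26.0 CPM) and the inhibitory *Smad6* (1.21 and 5.19 CPM) were higher in both libraries. Single wells held 91.4% of the WT and 92.3% of the Renin-null counts of *Smad1*, whose level was 197 CPM in YFP1 and 12.9 CPM in YFP2. Its log2 ratio was 4.41 in all wells and 4.25 without the highest wells. *Smad9* was at 21.6 CPM in WT against 12.4 CPM in Renin-null wells, but 1 well held 97.6% of the WT counts and 1 well 95.2% of the Renin-null counts. Its log2 ratio was -0.80 in all wells, -6.24 in YFP1, 0.058 in YFP2 and 0.21 without the highest wells.

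Of the 12 regulators, 6 were higher and 1 lower, with a median log2 ratio of 1.16 against 1.17 for all genes (1.76 against 0.71 for YFP1 alone, 0.75 against 0.98 for YFP2 alone). *Pmepa1*, a target that dampens the pathway, stood at 0.904 CPM in WT against 33.0 CPM in Renin-null wells, with log2 ratios of 4.83 in YFP1 and 5.43 in YFP2. *Nedd4l*, a ubiquitin ligase for SMAD2 and SMAD3, stood at 0.723 and 40.1 CPM, with 87.9% of the Renin-null counts in 1 well. The repressor *Ski* was the lower one, with 293 CPM in WT against 109 CPM in Renin-null wells. One WT well held 70.7% of the WT counts of *Ski*, and without the highest wells its log2 ratio went from -1.43 to -0.044. *Strap* was at 16.5 and 15.2 CPM, with 6.55 CPM in YFP1 and 22.5 CPM in YFP2.

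The 3 matrix proteoglycans that bind TGF-β were all higher. *Bgn* (biglycan) stood at 427 CPM in WT against 1341 CPM in Renin-null wells, was present in 46 WT wells and had log2 ratios of 1.27 in YFP1 and 1.91 in YFP2. *Dcn* (decorin) went from 5 counts in WT (0.0253 CPM) to 39.6 CPM, with 80.3 CPM in YFP1 and 5.58 CPM in YFP2. It is also in the fibroblast list, and 1 well held 48.8% of its Renin-null counts. *Fmod* (fibromodulin) was at 0 in WT and at 0.198 CPM in Renin-null wells. Its log2 ratio was 3.71 with 3 counts in place of the WT sum, and at least 3.38 with counting error. It was at 0 in YFP1 too, and 97.5% of its counts came from 1 well of YFP2.

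Among 14 known targets of the pathway, 13 had a ratio, of which 7 were higher and 0 lower, with a median log2 ratio of 1.10 against 1.17 for all genes. The median of the targets was above that of all genes in YFP1 (1.13 and 0.71), in YFP2 (1.55 and 0.98) and without the highest wells (4.27 and 1.89). *Col3a1*, a fibrillar collagen, was at 2.17 CPM in WT against 534 CPM in Renin-null wells, with 97.3 CPM in YFP1 and 899 CPM in YFP2. *Snai2*, a transcription factor of mesenchymal cells, was at 0.389 and 19.8 CPM, with 75.1% of the Renin-null counts in 1 well. *Ccn2* (connective tissue growth factor) was at 172 and 150.4 CPM, and *Acta2* at 4349 and 4291 CPM. Scaled by total counts, the contractile *Acta2* was thus at nearly the same level in both genotypes. Its ratio with TMM factors, which lowered the median of all genes from 1.17 to 0.47, is not given. For *Ccn2*, 1 WT well held 56.01% of the WT counts, and without the highest wells the log2 ratio went from -0.20 to 0.72. The collagens *Col1a1* (6.97 and 232 CPM) and *Col1a2* (164 and 352 CPM), named because they are held by the target list and by the fibroblast list alike, led the fibroblast sum in Renin-null wells. The part of fibroblasts in the collagen levels was not tested.

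**Figure D5:**
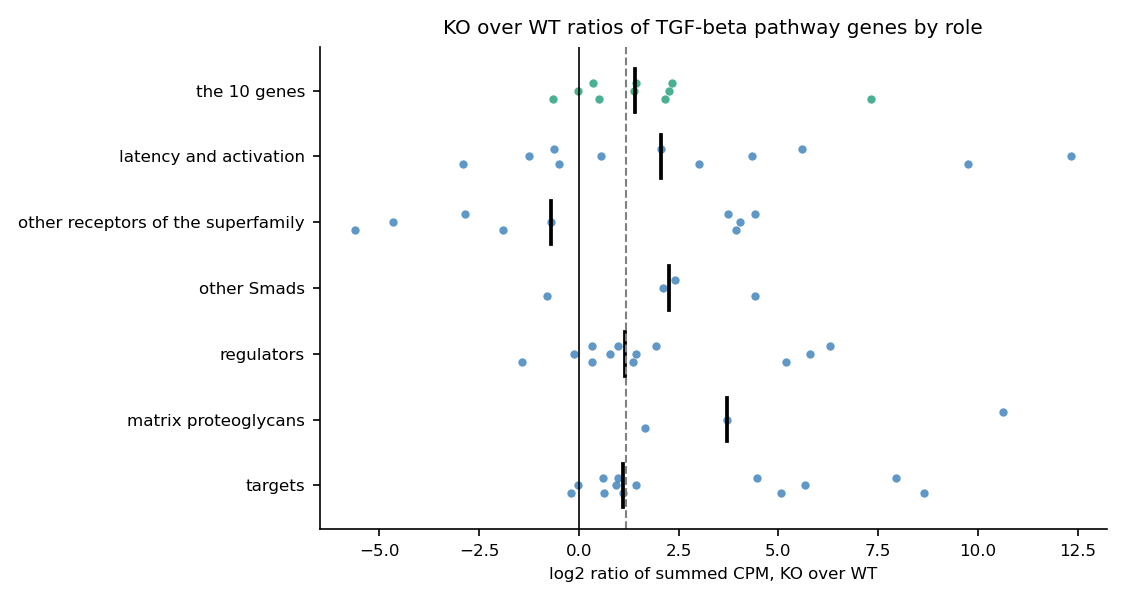
Log2 ratio of summed CPM, Renin-null (KO) over WT, for the 10 genes and for each list of pathway genes (points), with the median of each list (black bar) and of all genes (dashed line, 1.17). The other receptors have the lowest median (-0.71, which turns to 1.796 without the highest wells), and the 3 matrix proteoglycans have the highest (3.71), which is the ratio of *Fmod* with 3 counts in place of a WT sum of 0.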

How the data were processed

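The authors trimmed the reads with Trimmomatic 0.39 after FastQC 0.11.5, quantified them with Salmon 0.11.2 on GRCm38.p6 (mm10, ENSEMBL), per the labels and the study's methods, and summed transcripts to genes with tximport (lengthScaledTPM). The deposited values are these expected counts, not normalized for depth. Here they were rounded to whole numbers in each well, summed per genotype and scaled to CPM. In ratios, 3 counts stood in for a genotype at 0, and genes with 3 counts or fewer in both genotypes had none. Intervals are exact Poisson (sums), exact conditional (ratios) and Clopper-Pearson (shares of wells). No doublet caller was run. The level of 1 marker gene is not reported here. Genes named from the pathway lists are the 2 highest and 2 lowest ratios among genes with at least 10 CPM, and all genes of lists of 4 or fewer. *Ltbp2*, *Itgav*, *Emilin1*, *Col1a1* and *Col1a2* were added outside this rule after their values were seen. The 10 genes and all lists were chosen with earlier results of these data known. Coordinates and lengths are from GENCODE M21. TMM factors came from edgeR 4.0.16 in R 4.3.3, and all else from Python 3.11.15 (scipy 1.17.1, pandas 2.3.3, numpy 2.4.6, and matplotlib 3.10.9 for figures). Alternatives are listed in the closing section.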

Additional observations from a re-analysis of the deposited data

How the results depend on the processing

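No direction of the median of the 10 genes changed under the alternatives run, and its size did. The median log2 ratio, 1.40 in all wells, was 2.03 with the mean over wells of CPM, 0.57 as the difference of mean log2(CPM + 1), 2.47 in thinned wells, 0.70 with TMM factors, 1.24 without mitochondrial counts, 0.23 after subtracting the median of all genes, 0.72 in YFP1, 1.22 in YFP2, 1.99 without the highest well of each gene, 1.11 in wells passing the limits, 1.46 with near-identical wells counted once and 1.55 without wells of over 9000 genes. The 6 genes at least 2-fold higher became 2 with mean log2(CPM + 1), 3 after subtracting the median, 4 with TMM factors, 5 in YFP1, 7 without the highest well, 8 in thinned wells and 9 with the mean over wells of CPM. The 0 genes at least 2-fold lower became 1 with TMM factors, 2 after subtracting the median, 3 in YFP1, 2 in YFP2 and 1 without the highest well. Of all genes, 43.1% were at least 2-fold higher with TMM factors, 45.7% in YFP1, 49.8% in YFP2 and 63.2% without the highest well. At least 2-fold lower were 27.2%, 27.4%, 22.7% and 10.8% in turn. For the other settings the share of all genes was not counted, so those counts are not set against the whole transcriptome. The median of all genes, 1.17 in all wells, moved too. It was 1.55 with the mean over wells of CPM, 0.13 with mean log2(CPM + 1) and 1.36 in thinned wells. TMM factors lowered it to 0.47, and leaving out mitochondrial counts gave 1.01. It was 0.71 in YFP1, 0.98 in YFP2, 1.89 without the highest well and 1.11 in wells passing the limits. In YFP1 and in wells passing the limits, the medians of the 10 genes and of all genes were nearly equal. *Tgfbr1* reversed to -2.13 in YFP1 and *Smad4* to -1.91 in YFP2. Subtracting the median turned the regulators to -0.016 and the targets to -0.072, since both medians lay just under that of all genes. The cause of the other differences was not tested.

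Shares of wells moved with the limit. A ligand was found in 58.8% of WT and 67.7% of Renin-null wells at 1 count, in 7.84% and 17.7% at 100 CPM, and in 20.0% of YFP1 and 44.2% of YFP2 wells. The receptor pair, 3.61% in Renin-null wells, was found in 18.8% at 1 count, 1.04% at 10 CPM, 1.20% when thinned without mitochondrial counts, 1.30% without wells of over 9000 genes and 0% in YFP1. *Tgfbr1* or *Tgfbr2* in place of both, added after seeing the data, gave 18.1%. At 100 CPM the pair, the pair with a ligand and the whole chain stood at 0% in both genotypes. A ligand with the pair was found in 18.8% of Renin-null wells at 1 count and 0% of YFP1 wells. The whole chain, 1.20% in Renin-null wells, was at 11.5% at 1 count and at 0% at 10 CPM, in YFP1, when thinned without mitochondrial counts and without wells of over 9000 genes. Leaving out those gene-rich wells, also an added choice, took all 3 of these classes to 0% in WT, where well 10 was the well that held them.

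No paired analysis was possible because replicate numbers only name the wells and no test was run. Genotype, capture and library cannot be told apart. The WT sums rest on few wells, most WT wells were rich in mitochondrial counts, and 15 WT wells passed the limits, so that shares among them have wide intervals. At the thinned depth a gene under 16.1 CPM is often missed, so a well without a count is not a cell without the transcript. Without molecular identifiers, intervals of levels cover counting error only.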
